A study of Homo sapiens with 6 samples.

Results

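The WNT antagonists and feedback inhibitors described here are 10 genes, AXIN1, AXIN2, NKD1, NKD2, DKK1, SFRP4, SFRP5, RNF43, ZNRF3 and NOTUM, found by gene symbol among the 20030 genes of the count table. All 10 had an entry. Their mRNA was compared between HepG2 cells, a human liver cancer line, carrying a control shRNA (sh-ctrl, 3 libraries) and cells of the same line in which an shRNA targeted KIF11 (sh-KIF11, 3 libraries). KIF11 encodes the mitotic motor kinesin Eg5. Both groups received the hairpin by lentivirus from a pLKO.1 vector and were selected with puromycin, so the controls were transduced and selected cells too. A single KIF11 hairpin is listed for the study, and no source says that libraries of 1 group came from separate cultures. The p-values therefore measure the spread between these libraries, which may be technical.

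WNT ligands bind Frizzled receptors and the co-receptors LRP5 and LRP6, and the signal passes through Dishevelled proteins to a complex that otherwise marks beta-catenin for destruction. Antagonists act at every step of this route. Some are secreted and hold back the ligand or the co-receptor, some remove Frizzled from the cell surface, and some act in the cytoplasm on Dishevelled or beta-catenin. Several of the inhibitors, among them AXIN2, NKD1, NOTUM, RNF43 and ZNRF3, are themselves switched on by beta-catenin with its TCF/LEF partners, which makes them negative feedback. HepG2 cells carry a deletion in CTNNB1, the beta-catenin gene, that stabilises the protein, so this route is active in them without added ligand.

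The libraries held between 18167773 and 19583282 counts. The 20 most abundant genes took 9.345% to 9.684% of the counts in sh-ctrl and 6.912% to 7.04% in sh-KIF11, and the scaling factors (TMM, trimmed mean of M values) were 0.9216 to 0.9259 and 1.08 to 1.086. Levels are given as CPM, counts scaled to a common library total with those factors, and library totals alone in its place moved the median log2 fold change of all genes from 0 to 0.24. KIF11 itself was at 111, 116 and 121 CPM in the sh-ctrl libraries and at 72.2, 71.4 and 62.9 CPM in the sh-KIF11 libraries, a log2 fold change of -0.75 (SE 0.0573, adjusted p = 4.22e-15). Every log2 fold change is sh-KIF11 against sh-ctrl, and every adjusted p, unless another tool is named, is the quasi-likelihood p of edgeR, adjusted by Benjamini-Hochberg over the 12369 genes with enough counts. Of 10 hepatocyte markers 9 were lower in sh-KIF11, with a median log2 fold change of -1.1 and summed levels of 32289 to 33851 CPM against 14436 to 15578 CPM. Of 3 tested immune markers all 3 were lower. LYZ made most of their sum, which fell from between 2486 and 2984 CPM to between 508 and 639 CPM, while PTPRC had at most 1 count and CD163 had 0 in every library. Of 7 fibroblast markers the 1 with enough counts, PDGFRB, was lower, DCN was at 0, and the sum went from between 2.55 and 3.93 CPM to between 1.45 and 2.19 CPM. Of 2 tested endothelial markers VWF was higher, and the sum went from between 3.16 and 3.56 CPM to between 4.69 and 4.98 CPM. The part of these shifts in the results below was not tested. In bulk RNA, fewer cells that express a gene and less of its mRNA per cell cannot be told apart.

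All 10 members passed the low-count filter and all 10 changed at an adjusted p under 0.05, 4 upward (AXIN2, NKD2, SFRP4 and RNF43) and 6 downward (AXIN1, NKD1, DKK1, SFRP5, ZNRF3 and NOTUM, where NKD1 changed sign when scaled by library totals or measured in FPKM). Of all tested genes, 69.1% changed by the same rule, 34.4% upward and 34.7% downward, so a changed gene was common in this comparison. The CPM ranges of the groups did not overlap for any of the 10 members, against 71.2% of all tested genes. The members' median log2 fold change was -0.22, beside 0 over all tested genes, and their median size of change was 0.47, beside 0.33. The members were chosen with earlier results of these data known, so no conclusion about them as a set is drawn from these comparisons. A change of over 2-fold was reached by 1 member, SFRP5, which was also the member with the fewest counts. The smallest p that an exact permutation test can reach for a gene with 3 libraries in each group is 0.1.

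**Figure D1:**
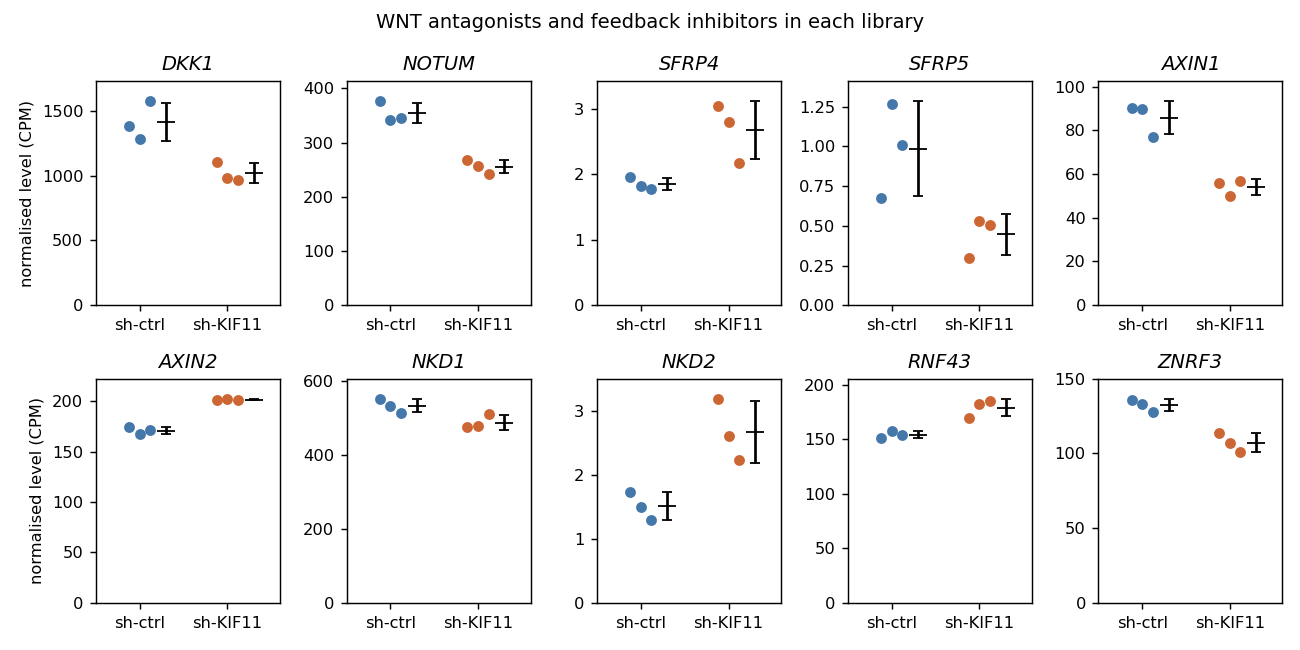
Normalised level in CPM (vertical axes, each from 0) of the 10 members in the 3 sh-ctrl (blue) and 3 sh-KIF11 (orange) libraries, with the mean and SD in black. The sh-KIF11 points lie below the sh-ctrl points for DKK1, NOTUM, SFRP5, AXIN1, NKD1 and ZNRF3 and above them for SFRP4, AXIN2, NKD2 and RNF43.

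The plot of CPM in each library places the members by role, with the secreted antagonists first. DKK1, a secreted protein that binds LRP5 and LRP6 and keeps them from joining a WNT-Frizzled complex, was the most abundant member by FPKM (a level per transcript length). It lies at chr10:52314296-52318042 on the plus strand of GRCh38, opposite the antisense gene PRKG1-AS1. A stretch of its promoter is shown because, of the members' promoters that could be searched, it was the one with matches to the TCF/LEF motif. The sequence is from RefSeq (GRCh38.p14, chr10:52314156-52314241, plus strand, 125 to 40 bases before the transcription start site), and its capitals mark the motif matches.
DKK1 promoter: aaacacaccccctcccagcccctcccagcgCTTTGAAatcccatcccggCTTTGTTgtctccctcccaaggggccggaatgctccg

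The motif was searched on both strands as CTTTGAA or CTTTGAT or CTTTGTA or CTTTGTT, in windows of 300 bases that ran from 250 bases before to 50 bases after the start site. The matches in DKK1 were CTTTGAA, 95 to 89 bases before the start site, and CTTTGTT, 76 to 70 bases before it, both on the plus strand and without overlap. Of 35116 promoter windows in the RefSeq table, 13.8% held a match and 1.58% held at least 2. The 6 members with an entry, AXIN1, NKD2, DKK1, SFRP4, SFRP5 and RNF43, had 7 windows, and the other 6 windows held no match. AXIN2, NKD1, ZNRF3 and NOTUM had no entry in that table. A match describes the letters of the window and not binding.

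DKK1 was measured at 1387, 1282 and 1574 CPM in the sh-ctrl libraries and at 1106, 986 and 965 CPM in the sh-KIF11 libraries. Every sh-KIF11 library was below every sh-ctrl library. The mean went from 1414 ± 148 to 1019 ± 76 CPM (SD, n = 3 each), 27.9% lower, with a log2 fold change of -0.47 (SE 0.0568, adjusted p = 1.28e-09). In the fits that omitted 1 library the log2 fold change lay between -0.54 and -0.39, and under library totals alone it was -0.24 (adjusted p = 0.000181).

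NOTUM, a secreted enzyme that removes the lipid from WNT ligands and so inactivates them, lies at chr17:81952507-81961840 on the minus strand. Its levels were 376, 341 and 346 CPM in sh-ctrl and 267, 257 and 243 CPM in sh-KIF11, again with no overlap. The mean fell from 354 ± 18.8 to 256 ± 12.1 CPM (SD, n = 3 each), also 27.9% lower, with a log2 fold change of -0.47 (SE 0.0505, adjusted p = 6.81e-11). Under library totals alone it was -0.24 (adjusted p = 4.59e-05). The log2 fold changes of NOTUM and DKK1 were thus the same to 2 decimals in both scalings.

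SFRP4 and SFRP5 are secreted Frizzled-related proteins, which carry the WNT-binding domain of a Frizzled receptor without its membrane part. Both were near the low end of what could be measured. SFRP4 (chr7:37905932-38025695, minus strand) had counts of 35, 33 and 30 (sh-ctrl) and of 61, 58 and 43 (sh-KIF11), or 1.86 ± 0.0955 against 2.67 ± 0.444 CPM (SD, n = 3 each). All sh-KIF11 libraries were above the sh-ctrl libraries. The log2 fold change was 0.53 (SE 0.236, adjusted p = 0.0461), just inside the threshold, and the call was lost in 5 of the 6 fits that left out 1 library (adjusted p between 0.0307 and 0.179), being kept only without sh-KIF11 replicate 3. DESeq2 gave an adjusted p of 0.133. By the GENCODE gene model used here for positions, SFRP4 lies opposite EPDR1. EPDR1 had between 1178 and 1459 counts in a library and a log2 fold change of -0.02 (SE 0.0596, adjusted p = 0.757). The RefSeq promoter window of SFRP4 (chr7:37916768-37917067) lies inside that model, so the overlap may depend on the gene model. The strand setting of the counting is not given in the sources used here. Whether the counted parts of these genes overlap, and whether their reads were mixed, was not tested.

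SFRP5 (chr10:97766751-97771952, minus strand) had counts of 12, 23 and 17 (sh-ctrl) and of 6, 11 and 10 (sh-KIF11). The lowest sh-ctrl library and the highest sh-KIF11 library were 1 count apart. The level went from 0.985 ± 0.301 to 0.446 ± 0.128 CPM (SD, n = 3 each), 54.3% lower, with a log2 fold change of -1.13 (SE 0.407, adjusted p = 0.0132). Without sh-ctrl replicate 2 it was -0.89 (adjusted p = 0.0984) and without sh-KIF11 replicate 1 it was -0.92 (adjusted p = 0.0746), and DESeq2 gave an adjusted p of 0.0646. A count of 3, taken as the detection limit, equals 0.145 to 0.178 CPM in these libraries, and such limits cover counting error only.

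AXIN1 and AXIN2 encode the scaffold on which APC, GSK3 and casein kinase 1 meet beta-catenin. AXIN1 is the constitutive form and AXIN2 is induced by beta-catenin. They moved in opposite directions. AXIN1 (chr16:287440-352673, minus strand) was at 90.3, 89.8 and 77.1 CPM in sh-ctrl and at 56, 50 and 56.6 CPM in sh-KIF11, well apart. The mean fell from 85.7 ± 7.5 to 54.2 ± 3.63 CPM (SD, n = 3 each), 36.8% lower, with a log2 fold change of -0.66 (SE 0.0637, adjusted p = 3.6e-12). AXIN2 (chr17:65528563-65561647, minus strand, with the gene model AC004805.1 on the same strand) was at 174, 167 and 171 CPM in sh-ctrl and at 201, 202 and 201 CPM in sh-KIF11. The sh-KIF11 libraries lay within 1 CPM of their mean, and all were above the sh-ctrl libraries. The mean rose from 171 ± 3.71 to 201 ± 0.484 CPM (SD, n = 3 each), with a log2 fold change of 0.24 (SE 0.0486, adjusted p = 4.45e-05). Both calls were kept under all 15 alternatives, and under library totals alone the log2 fold changes were -0.43 for AXIN1 and 0.47 for AXIN2.

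NKD1 and NKD2 encode the naked cuticle proteins, which bind Dishevelled. NKD1 (chr16:50548330-50649249, plus strand, with antisense genes AC007608.2 and AC007608.1) was abundant, at 551, 534 and 515 CPM in sh-ctrl and at 475, 479 and 510 CPM in sh-KIF11. The groups were separated by a narrow gap, from 510 to 515 CPM, with means of 533 ± 17.9 and 488 ± 19.1 CPM (SD, n = 3 each). The log2 fold change was -0.13 (SE 0.0481, adjusted p = 0.0171). The sign depended on the scaling, with 0.10 under library totals alone (adjusted p = 0.0549) and 0.03 with limma on the logarithm of FPKM (adjusted p = 0.599 with a pseudocount of 1), and the call was lost in 4 of the 6 fits that left out 1 library, being kept only without sh-ctrl replicate 3 and without sh-KIF11 replicate 3. NKD2 (chr5:1008829-1038943, plus strand) was rare, with counts of 31, 27 and 22 (sh-ctrl) and of 64, 54 and 44 (sh-KIF11). Each sh-KIF11 library was above each sh-ctrl library. The level rose from 1.51 ± 0.218 to 2.68 ± 0.483 CPM (SD, n = 3 each), with a log2 fold change of 0.82 (SE 0.249, adjusted p = 0.00376), and was called in all 15 alternatives.

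RNF43 and ZNRF3 are related transmembrane ubiquitin ligases that mark Frizzled for removal from the cell surface, and R-spondins acting with LGR receptors hold them in check. RNF43 (chr17:58352500-58417595, minus strand) was at 151, 158 and 154 CPM in sh-ctrl and at 170, 182 and 185 CPM in sh-KIF11. All sh-KIF11 libraries were higher. The mean rose from 154 ± 3.35 to 179 ± 8.21 CPM (SD, n = 3 each), with a log2 fold change of 0.21 (SE 0.0504, adjusted p = 0.000253), and the call was kept in all 15 alternatives. TSPOAP1-AS1 lies opposite RNF43, and SUPT4H1 and AC004687.2 share its strand. SUPT4H1 had a log2 fold change of -0.08 (SE 0.055, adjusted p = 0.2). ZNRF3 (chr22:28883592-29057487, plus strand, opposite ZNRF3-AS1 and sharing its strand with ZNRF3-IT1) was at 136, 133 and 128 CPM in sh-ctrl and at 114, 107 and 101 CPM in sh-KIF11. The sh-KIF11 libraries were all lower, with a mean of 132 ± 4.44 against 107 ± 6.42 CPM (SD, n = 3 each). The log2 fold change was -0.31 (SE 0.0532, adjusted p = 3.12e-06). The direction was kept but not the call under library totals alone (-0.07, adjusted p = 0.205) and with limma on log2(FPKM + 1) (-0.09, adjusted p = 0.17).

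**Figure D2:**
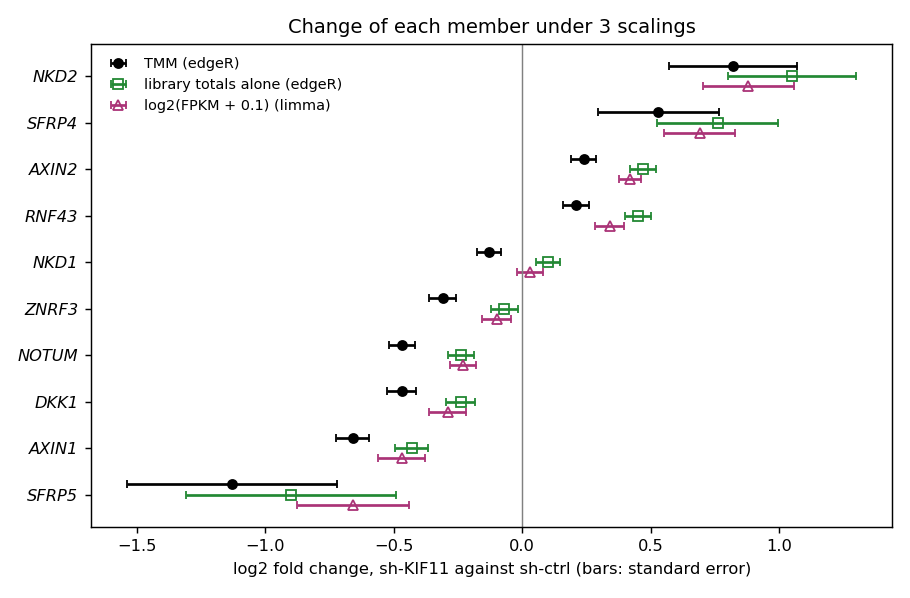
Log2 fold change of each member, sh-KIF11 against sh-ctrl (horizontal axis), with its standard error, under TMM scaling (black circles), library totals alone (green squares) and limma on log2(FPKM + 0.1) (purple triangles). The values of NKD1 are -0.13, 0.10 and 0.03 in that order, and those of the other 9 members keep their sign.

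The plot of each member's change under 3 scalings shows the green points to the right of the black ones for each gene, since scaling by library totals moves all genes by nearly the same amount. Across all 15 alternatives, 6 members were called each time, AXIN2, NKD2 and RNF43 as higher and AXIN1, DKK1 and NOTUM as lower. The other members were called in 12 of 15 (ZNRF3), 11 of 14 (SFRP5), 7 of 15 (SFRP4) and 6 of 15 (NKD1).

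Ratios between related members within a library do not depend on the scaling between libraries. The log2 ratio of AXIN2 to AXIN1 counts was 0.95, 0.89 and 1.15 in sh-ctrl, against 1.84, 2.01 and 1.83 in sh-KIF11. The mean was higher by 0.90, a 1.86-fold shift toward AXIN2. The log2 ratio of RNF43 to ZNRF3 was 0.15, 0.24 and 0.27 in sh-ctrl, against 0.58, 0.76 and 0.88 in sh-KIF11, higher by 0.52 or 1.43-fold. The log2 ratio of NKD1 to NKD2 went the other way, from 8.28, 8.45 and 8.59 to 7.21, 7.51 and 7.82, with a difference of -0.93. For the Frizzled-related pair, the log2 ratio of SFRP4 to SFRP5 was 1.51, 0.51 and 0.80 in sh-ctrl, against 3.24, 2.35 and 2.05 in sh-KIF11, higher by 1.61 and with the widest spread, at 0.511 and 0.62 (SD, n = 3 each). In none of the 4 pairs did the groups overlap. The exact two-sided permutation test over the 6 libraries gave p = 0.1 for each pair, which is the smallest it can give here, and 0.1 after adjustment over the 4 pairs.

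**Figure D3:**
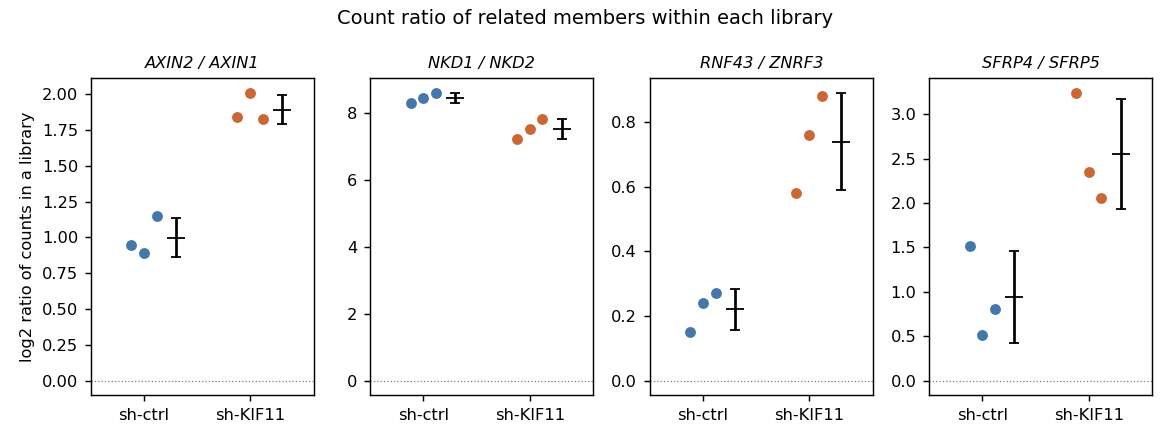
Log2 ratio of the counts of related members in each library (vertical axes, with the dotted line at 0 for equal counts), with the mean and SD in black. The sh-KIF11 libraries are above the sh-ctrl libraries for AXIN2 to AXIN1, RNF43 to ZNRF3 and SFRP4 to SFRP5 and below them for NKD1 to NKD2.

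The plot of within-library ratios thus separates the groups for each pair, although both SFRP genes and NKD2 had few counts. The direction of all 4 ratios was kept in every alternative run. The ranges were 0.84 to 0.97 for AXIN2 to AXIN1, 0.43 to 0.60 for RNF43 to ZNRF3, -1.09 to -0.78 for NKD1 to NKD2 and 1.26 to 1.89 for SFRP4 to SFRP5.

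Levels of different genes were compared in the deposited FPKM (fragments per kilobase of transcript, scaled to library size), which account for transcript length. In sh-ctrl the order from the top was DKK1 at 906 ± 89.2 FPKM, NOTUM at 111 ± 5.49, AXIN2 at 21.7 ± 0.581, NKD1 at 19.2 ± 0.808, RNF43 at 14 ± 0.307, ZNRF3 at 12.5 ± 0.568 and AXIN1 at 8.44 ± 0.674 FPKM (SD, n = 3 each). SFRP4 at 0.517 ± 0.0128, SFRP5 at 0.491 ± 0.141 and NKD2 at 0.201 ± 0.0272 FPKM closed the order. Neighbours in this order did not overlap between libraries except SFRP4 and SFRP5. DKK1 made up 82.8% of the members' summed FPKM in sh-ctrl and 80.4% in sh-KIF11.

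In sh-KIF11 the order was the same for the 8 most abundant members, with DKK1 at 740 ± 47.9 FPKM and NOTUM at 94.8 ± 4.65 FPKM (SD, n = 3 each). NKD2, at 0.461 ± 0.122 FPKM, stood above SFRP5, at 0.274 ± 0.0794 FPKM. No neighbours overlapped in that group. Ratios of FPKM between members were taken in each library and then averaged over the group, so they can differ from ratios of the group means. The FPKM of SFRP4 was 1.11 times that of SFRP5 in sh-ctrl and 3.65 times in sh-KIF11. AXIN2 was at 2.58 times the FPKM of AXIN1 in sh-ctrl and at 4.83 times in sh-KIF11, and RNF43 at 1.12 and 1.52 times that of ZNRF3. NKD1 was at 96.5 times the FPKM of NKD2 in sh-ctrl and at 44.4 times in sh-KIF11.

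**Figure D4:**
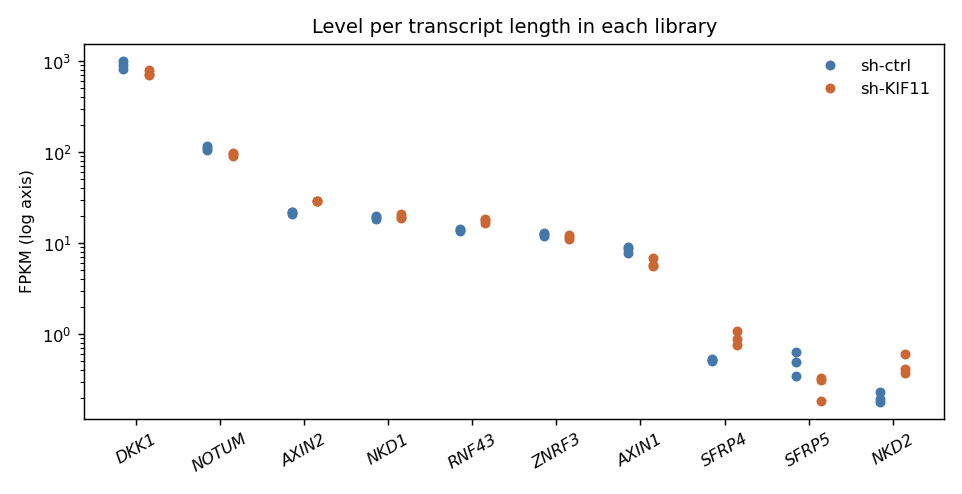
FPKM of each member in each library (log axis), ordered by the mean in sh-ctrl, for sh-ctrl (blue) and sh-KIF11 (orange). DKK1 lies highest, at 906 FPKM on average in sh-ctrl, and SFRP4, SFRP5 and NKD2 are near or below 1 FPKM in both groups.

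The plot of FPKM shows that the 7 abundant members and the 3 rare ones formed separate ranges in both groups. Of the members, 8 carried the Wnt pathway term in the deposited annotation, all but RNF43 and ZNRF3, and 3 (AXIN1, AXIN2 and NKD1) also carried the Hippo pathway term.

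The rest of the pathway was described by 7 lists that together held 77 genes, 49 of them tested. Of these, 12 were higher in sh-KIF11, 18 were lower and 19 were not called, so that 61.2% changed, with a median log2 fold change of -0.08. Over all tested genes 69.1% changed, 34.4% upward and 34.7% downward. The counts for each list below stand beside those shares, and no list was tested as a set. Like the members, the lists were chosen with earlier results of these data known. Among 17 further antagonists and their co-receptors, not all of them secreted, 4 were tested and 1 was higher. The plot of the lists labels them secreted antagonists. That was DRAXIN, a secreted axon guidance protein, with counts of 0, 2 and 0 (sh-ctrl) and of 23, 41 and 35 (sh-KIF11). The ratio of its scaled counts was 43.2, with a 95% counting interval of 11.6 to 361. KREMEN1, a DKK1 receptor and the most abundant gene of that list, was at 68.1 and 63.8 CPM and was not called (log2 fold change -0.09, adjusted p = 0.149), with 0.14 under library totals alone. SFRP2, SOST and SOSTDC1 had no count in any library.

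Of the intracellular inhibitors, 12 of 16 were tested, with 2 higher, 5 lower and 5 not called, and with library totals alone 6 were higher and 3 lower. APC, a scaffold of the destruction complex, rose from 29.2 ± 2.35 to 45.8 ± 3.71 CPM (SD, n = 3 each; log2 fold change 0.65, SE 0.0776, adjusted p = 1.08e-09). CSNK1A1, the casein kinase that primes beta-catenin, fell from 122 ± 8.47 to 75.9 ± 3.91 CPM (SD, n = 3 each; log2 fold change -0.68, SE 0.0565, adjusted p = 4.69e-14). Of 5 genes that control how long axin proteins last, 3 were higher, 1 lower and 1 not called, and with library totals alone 4 were higher and 0 lower. RNF146, the ligase that marks tankyrase-modified axin for destruction, rose from 19.9 ± 2.11 to 35.5 ± 2.04 CPM (SD, n = 3 each; log2 fold change 0.83, SE 0.0824, adjusted p = 8.46e-12). USP34, a deubiquitinase of axin, rose from 182 to 224 CPM (log2 fold change 0.30, adjusted p = 1.59e-06). The tankyrase TNKS was lower, at 91.6 and 78.2 CPM (log2 fold change -0.23, adjusted p = 0.000372), but had a log2 fold change of 0.00 with library totals alone (adjusted p = 0.957).

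The partners of RNF43 and ZNRF3 were represented by LGR5 and LGR4, since 5 of the 7 genes in the list of R-spondins and LGRs were not tested. RSPO2, RSPO3 and RSPO4 had no count. LGR5 rose from 136 ± 2.3 to 165 ± 6.59 CPM (SD, n = 3 each; log2 fold change 0.28, SE 0.0503, adjusted p = 6.5e-06). LGR4 was at 130 and 117 CPM, with a log2 fold change of -0.15 (adjusted p = 0.0109) that changed sign to 0.08 with library totals alone and was not called without sh-KIF11 replicate 2 (-0.13, adjusted p = 0.0627).

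Of 12 WNT receptors, 10 were tested, with 4 lower and 6 not called by edgeR, and 2 higher and 1 lower with library totals alone. LRP5, one of the co-receptors that DKK1 binds, fell from 348 ± 17.3 to 238 ± 8.65 CPM (SD, n = 3 each; log2 fold change -0.55, SE 0.0499, adjusted p = 6.48e-13). LRP6, the other, was at 87.4 and 82.5 CPM and was not called (log2 fold change -0.08, adjusted p = 0.17), but was called higher with library totals alone (0.15, adjusted p = 0.0137). LRP6 is named here after its values were seen. FZD5 was at 138 and 127 CPM (log2 fold change -0.12, adjusted p = 0.0289), with 0.11 under library totals alone. The rare FZD9 had counts of 12, 12 and 20 (sh-ctrl) and of 13, 6 and 4 (sh-KIF11). These overlap as raw counts but barely miss each other in CPM, where the closest libraries were at 0.665 (sh-ctrl) and 0.648 (sh-KIF11). The log2 fold change of FZD9 was -1.12 (adjusted p = 0.0268). FZD5 lost its call without sh-ctrl replicate 2 and without sh-KIF11 replicates 2 and 3 (adjusted p of 0.0699, 0.175 and 0.0677), and FZD9 without sh-ctrl replicate 3 and without sh-KIF11 replicates 2 and 3 (0.172, 0.0985 and 0.136). Of 4 tested genes for Dishevelled and WNT secretion, 2 were lower and 2 were not called, and 1 was higher and 1 lower with library totals alone. DVL1 fell from 269 ± 11.8 to 179 ± 4.25 CPM (SD, n = 3 each; log2 fold change -0.59, SE 0.0496, adjusted p = 7.87e-14), and DVL2 from 79.9 to 66.5 CPM (log2 fold change -0.27, adjusted p = 0.000109, but -0.04 and 0.599 with library totals alone). WLS, which carries WNT ligands to the cell surface, had at most 4 counts.

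Of 16 known beta-catenin targets, LGR5 again among them, 13 were tested, with 6 higher, 5 lower and 2 not called, or 6 higher and 3 lower with library totals alone. CCND1, which encodes cyclin D1, rose from 368 ± 13.5 to 619 ± 15.7 CPM (SD, n = 3 each; log2 fold change 0.75, SE 0.048, adjusted p = 1.74e-17). GLUL, the glutamine synthetase gene of perivenous hepatocytes, fell from 341 ± 12.9 to 172 ± 1.36 CPM (SD, n = 3 each; log2 fold change -0.99, SE 0.0489, adjusted p = 3.16e-21). CYP1A2 had counts of 3, 3 and 1 (sh-ctrl) and of 18, 29 and 24 (sh-KIF11) (log2 fold change 3.08, adjusted p = 1.24e-06). The targets moved in both directions, as did the feedback inhibitors named at the start as targets themselves, a list that leaves out DKK1. AXIN2 and RNF43 were higher and NOTUM, ZNRF3 and NKD1 were lower, where NKD1 changed sign with library totals alone and with FPKM and ZNRF3 was not called with either.

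**Figure D5:**
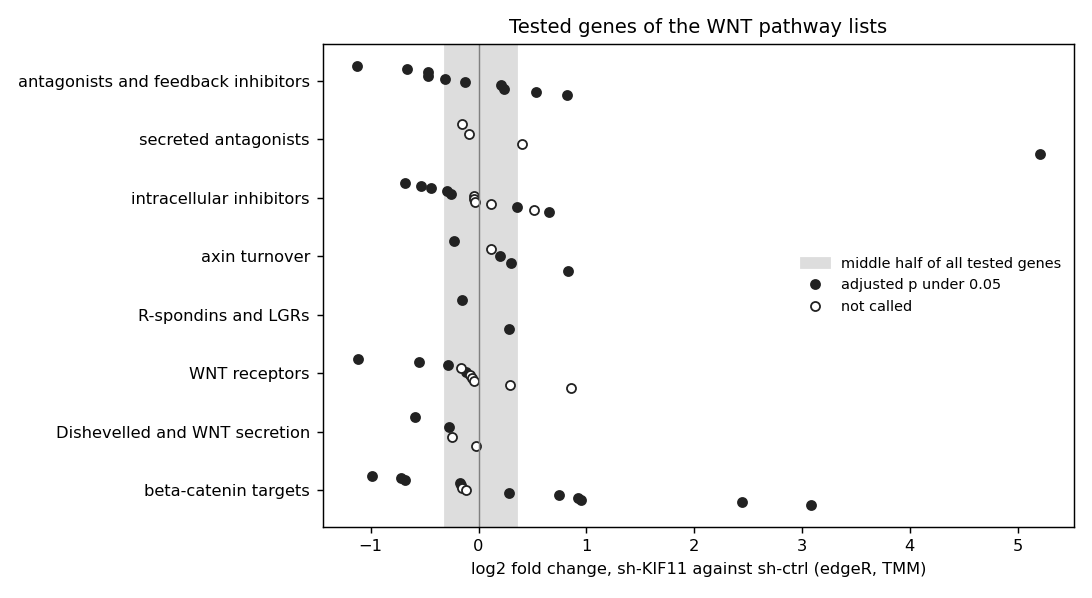
Log2 fold change, sh-KIF11 against sh-ctrl (horizontal axis), of the tested genes of each list, filled where the adjusted p is under 0.05, with the interquartile range of all 12369 tested genes (-0.31 to 0.36) in grey. The 10 antagonists and feedback inhibitors in the top row lie between -1.13 and 0.82, and the point near 5 is DRAXIN, whose sh-ctrl libraries had 0, 2 and 0 counts, so that its fitted value depends on the prior count.

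In the plot of the pathway lists, the members SFRP5, AXIN1, DKK1 and NOTUM lay below the interquartile range of all tested genes and SFRP4 and NKD2 above it, while AXIN2, NKD1, RNF43 and ZNRF3 lay inside it.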

How the data were processed

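PolyA mRNA of HepG2 cells was sequenced in 6 libraries, 3 sh-ctrl and 3 sh-KIF11. Per gene, the authors deposited raw read counts that had not been normalised. The deposited FPKM values of these genes had been scaled by the authors for transcript length and library size. The submitters' processing notes name bcl2fastq 1.8.4, Trimmomatic, HISAT2 2.1.0, Cufflinks 2.2.1, HTSeq 0.9.1, DESeq and GRCh38, without saying which made which table. The knockdown columns are named only as shRNA in the tables and were assigned to sh-KIF11, the one non-control hairpin in the labels. All sample columns were mapped.

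Counts were fitted with edgeR 4.0.16 under R 4.3.3 (filterByExpr, TMM, quasi-likelihood test, two-sided), on the whole table of 20030 genes, of which 12369 were kept and 7661 left out. Benjamini-Hochberg adjustment was used, and an adjusted p under 0.05 was a call. Alternatives were DESeq2 1.42.0, limma 3.58.1 on log2(FPKM + 1) and log2(FPKM + 0.1), RLE and upper-quartile factors, library totals alone, a minimum of 10 counts in every library, no filter on low counts, a replicate block, and each library left out in turn. Ratios of related genes used a pseudocount of 0.5 and an exact permutation test. The edgeR step was tested on simulated data. Gene positions are those of GENCODE release 29 on GRCh38, and promoters are RefSeq windows on GRCh38.p14.

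Depth was between 18167773 and 19583282 counts per library, and intervals and limits cover counting error only. All 10 members were named. From each pathway list the most abundant gene and the called genes with the highest and lowest log2 fold change were named. The members and the lists were chosen with earlier results of these data known.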

Additional observations from a re-analysis of the deposited data

How the results depend on the processing

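Over all alternatives 3 to 4 members were higher and 4 to 6 lower, and 126 of the members' alternative values kept direction and call, 20 lost the call and 3, all of NKD1, reversed (0.10 with library totals alone, 0.03 with limma on log2(FPKM + 1) and 0.03 with limma on log2(FPKM + 0.1)). SFRP5 was not tested with at least 10 counts in every library, since its libraries have fewer. Low counts limit SFRP4, SFRP5 and NKD2. The share of calls that were higher was 49.8% with TMM, 73.6% with library totals alone, 58.5% with upper-quartile factors and 68.5% or 68.6% with FPKM, and the cause was not tested.

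With library totals alone, log2 fold changes reversed for KREMEN1 (0.14), LRP6 (0.15), TNKS (0.00), LGR4 (0.08) and FZD5 (0.11), and with FPKM at either pseudocount for KREMEN1 (0.04), LGR4 (0.02), FZD5 (0.06) and LRP6 (0.06 with a pseudocount of 1, 0.07 with 0.1). With library totals alone 3 further antagonists or co-receptors were higher, and the intracellular inhibitors moved to 6 higher and 3 lower. The other counts moved to 0 lower axin turnover genes, 0 lower R-spondins and LGRs, and 2 higher and 1 lower WNT receptors. For Dishevelled and WNT secretion they moved to 1 higher and 1 lower gene, and for beta-catenin targets to 3 lower. With FPKM at either pseudocount 2 further antagonists or co-receptors were higher, and the intracellular inhibitors moved to 4 higher and 3 lower. The other counts moved to 0 lower axin turnover genes, 0 lower R-spondins and LGRs, and 2 lower WNT receptors. For Dishevelled and WNT secretion they moved to 1 higher and 1 lower gene, and for beta-catenin targets to 3 lower. Upper-quartile factors gave 0 lower R-spondins and LGRs and 3 lower beta-catenin targets. Without the low-count filter 2 further antagonists or co-receptors and 1 WNT receptor were higher. With at least 10 counts in every library 0 further antagonists or co-receptors were higher and 2 WNT receptors lower. DESeq2 gave 1 higher WNT receptor. Leaving out each library in turn gave 0 to 1 lower R-spondins and LGRs (0 without sh-KIF11 replicate 2), 0 to 1 higher WNT receptors (0 without sh-KIF11 replicate 3) and 2 to 4 lower WNT receptors (2 without sh-KIF11 replicate 2 or 3).

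The labels do not say whether libraries with the same replicate number were paired. The correlations of same-numbered libraries' deviations from their group means were 0.03, -0.018 and -0.003. With 3 libraries in a group, whose deviations cancel out, these values cannot settle the question. The replicate block gave 4296 higher and 4311 lower genes in place of 4254 and 4294, with 3 members higher and 6 lower, and SFRP4 alone among the members lost its call (0.52, adjusted p = 0.0575). No ratio of related members could pass the threshold with 3 pairs, where the smallest exact p is 0.25.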
